A study of Homo sapiens with 10 samples.

Results

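The loci described here were 11020 stretches of transcription without a gene symbol that were abundant in RNA held with chromatin in nuclei of HEK293, an adherent human embryonic kidney line. They were drawn from 241080 loci for which the study's authors deposited expression values. Nuclei had been divided into the RNA that dissolved, the soluble nuclear extract (SNE, 3 samples), and the RNA that stayed with the chromatin pellet, its extract (CPE, 3 samples), described as biological replicates, and stranded total RNA was sequenced. Chromatin pellets with DRB, an inhibitor of transcription elongation (2 samples), and with its mock treatment (2 samples) were not analysed here. The table holds 1 FPKM value (a fragment count scaled by the length of the transcript and the size of the library) for SNE and 1 for CPE, so no value per sample, SD or library depth can be given. All samples are of 1 cell line, and a level in either is a concentration within that extract, not an amount per nucleus.

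Members were chosen from measured values. A locus qualified when it had no symbol, was tested by the authors, lay in a region over 500 bases long, had an SNE FPKM above 0 and a CPE FPKM of at least 5, and had a CPE to SNE ratio of at least 4. Level and ratio are therefore description, and nothing is inferred from them. In the table a region is the stretch of the hg19 genome that the authors' software handled as 1 bundle. All loci of a bundle carry the same coordinates, so 11020 loci stand in 3135 distinct regions and only a locus alone in its region has a position of its own. Strand is not given per locus, so sense and antisense transcription from a gene cannot be told apart.

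Chromatin-associated RNA is known to be rich in nascent transcripts, which still carry introns and stay tethered to the template by RNA polymerase II. Spliced and polyadenylated messenger RNA leaves the gene and passes through the soluble nucleoplasm on its way to the cytoplasm. Transcript assembly on such RNA yields many fragments without a name, which can be pieces of introns, read-through past the end of a gene, antisense RNA, enhancer RNA or separate long non-coding RNA.

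The upstream sequences of a pair of genes are shown because the results return to them: PTPRK, a receptor-type protein tyrosine phosphatase whose region held the most members, and TRMT11, the catalytic subunit of a tRNA guanosine methyltransferase, whose region held members alone and was followed by more. Each is the 250 bases before the RefSeq start on the gene's own strand (GRCh38.p14, chr6:128520600-128520849 on the minus strand for PTPRK and chr6:125986290-125986539 on the plus strand for TRMT11). Capitals mark a match to the GC box.
PTPRK: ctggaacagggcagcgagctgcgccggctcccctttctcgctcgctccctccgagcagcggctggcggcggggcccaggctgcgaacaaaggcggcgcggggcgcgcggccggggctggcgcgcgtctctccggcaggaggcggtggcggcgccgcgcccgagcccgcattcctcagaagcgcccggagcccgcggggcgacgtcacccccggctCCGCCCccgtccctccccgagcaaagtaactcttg
TRMT11: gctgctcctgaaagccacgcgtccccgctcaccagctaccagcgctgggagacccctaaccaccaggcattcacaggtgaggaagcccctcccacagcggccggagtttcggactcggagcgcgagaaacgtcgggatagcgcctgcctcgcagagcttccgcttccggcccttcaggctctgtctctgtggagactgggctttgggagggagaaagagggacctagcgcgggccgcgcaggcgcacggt
Searched on both strands for TATAAA, known as the TATA box, then for CCAAT, and then for GGGCGG, known as the GC box, the PTPRK sequence held 1 GC box and the TRMT11 sequence none of the 3 motifs. Among 35116 RefSeq upstream sequences of the same length, 10.7% held the first, 32.01% the second and 42.6% the last. The base composition was 77.2% G or C with 38 CpG pairs for PTPRK and 66.4% with 22 CpG pairs for TRMT11, against medians of 58% and 11 over all of them. No sequence of the unnamed loci themselves was read, because their coordinates are on hg19, for which no genome sequence was used here.

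Most members stood not far above the level bound of the rule. CPE FPKM ran from 5.00 to 5112 with a median of 7.42 (quartiles 5.98 and 10.3), and 73.1% of members were under 10. Only 38 of the 11020 reached 100. SNE FPKM had a median of 0.813 (quartiles 0.473 and 1.31). The CPE to SNE ratio ran from 4.001 to 188 with a median of 9.78 (quartiles 6.58 and 15.4), and 2562 members had a ratio of at least 16. Members were 6.49% of the 169689 unnamed tested loci in regions over 500 bases, and 78.6% of the 14022 of those with a CPE FPKM of at least 5 and an SNE FPKM above 0. A further 561 loci passed the CPE bound but were listed at 0 in SNE, and 3002 passed it with a ratio under 4. Just inside the CPE bound were CLOC_175186, in the region of TMEM38B, at 5.00001 and CLOC_109267, in the region of BBX, at 5.00005, and just outside it were CLOC_165656 (AP3M2) at 4.99991 and CLOC_158489 (ZNF282) at 4.99957. The nearest ratios inside the bound were 4.00082 for CLOC_122771 (GSTCD) and 4.00146 for CLOC_077478 (SNRPA), and those outside it were 3.99805 for CLOC_088771 (KIDINS220) and 3.99791 for CLOC_134672 (ANKHD1).

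**Figure D1:**
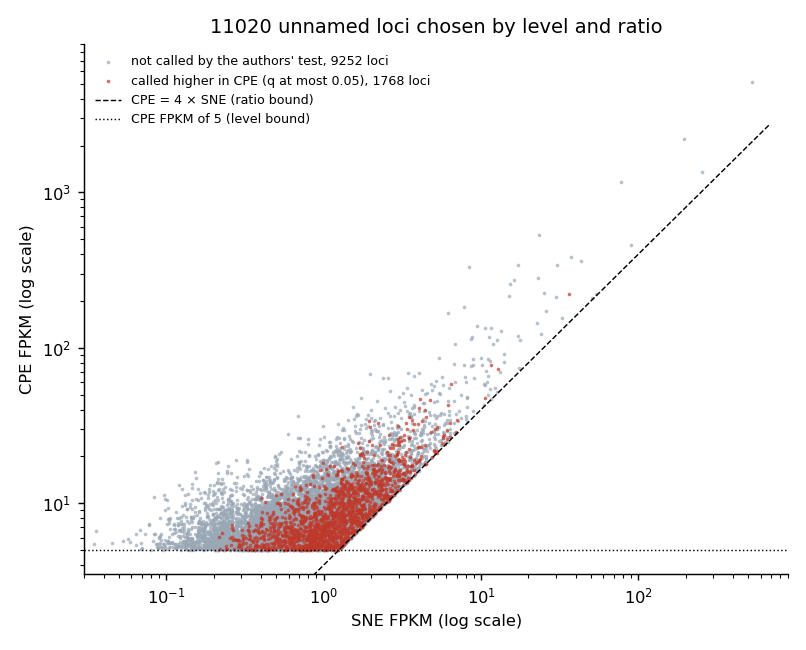
CPE FPKM (vertical, log scale) against SNE FPKM (horizontal, log scale) for all 11020 members, each point 1 locus, with the level bound dotted and the ratio bound dashed. The 1768 loci called higher in CPE by the authors' test (red) lie nearer the ratio bound than the 9252 uncalled loci (grey), with a median ratio of 7.11 against 10.6.

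The authors' own test called a minority of members. The authors' deposited table had 1768 members (16.04%) higher in CPE at a q of at most 0.05, against 8.86% of all unnamed tested loci over the length bound, and no member was higher in SNE. The test and the rule use the same contrast, so nothing is read from that difference. Called members had a median ratio of 7.11, a median SNE FPKM of 1.16 and a median CPE FPKM of 7.97. Uncalled members had medians of 10.6, 0.751 and 7.35. None of the 100 members with the largest ratios and none of the 10 with the highest CPE FPKM was called. The called share was 78.8% (63 of 80) for members alone in their region among unnamed tested loci, 26.2% where the region held 2 to 9 such loci, 15.2% at 10 to 49 and 11.01% at 50 or more. Over the same steps the median ratio was 6.65, 6.96, 9.25 and 13.7, so members in the regions with the most loci had higher ratios and fewer calls. The steps were not computed for other unnamed loci, so they are not read as a trait of members. Of the non-members in regions with a member 4.92% were called higher in CPE, and of the unnamed loci in regions without one 11.8% were.

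Nearly all members shared their region with a named gene. A symbol locus stood in the same region for 11007 of 11020 members (99.9%), and a single symbol locus for 2001 of them. Regions with 2 to 3 symbol loci held 3971 members, those with 4 to 10 held 4674 and those with more than 10 held 361. The 13 members without a symbol locus were 0.118% of all, whereas 0.799% of the abundant loci with a ratio under 4 and 4.14% of all unnamed tested loci over the length bound had none. The median region of a member was 154 kb long, that of an abundant locus with a ratio under 4 was 72.4 kb and that of all unnamed tested loci was 192 kb. Loci of a region are not independent, and 0.415% of the distinct member regions had no symbol locus. Whether region length bears on these shares was not tested.

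Where a region held a single gene, its extent was mostly that of the gene. Of 625 member regions whose only symbol was a protein-coding gene with a GENCODE 29 entry, 413 (66.1%) were within 5% of the gene's annotated length, and 72 had exactly that length. Lengths only were compared, because the annotation is on GRCh38 and the table on hg19. The 413 regions held 1157 members with a median ratio of 9.80. The gene itself had a median log2 ratio of CPE over SNE of -1.19 over the 412 tested. By the authors' deposited table, 229 of those 412 genes were higher in SNE and 2 higher in CPE. Over all 14048 tested symbol loci with FPKM at least 1, 47.9% were higher in SNE and 1.64% in CPE. The median log2 ratio of those loci was -1.32. The rule set the ratio of the members, so nothing is read from the contrast with their genes. EXT1, a glycosyltransferase of heparan sulphate synthesis, is 317.4 kb long in a region of 322.1 kb with 49 members. COL25A1, a membrane collagen of neurons, is 494.0 kb long in a region of 494.2 kb with 31 members, and PCM1, a protein of centriolar satellites, is 107.1 kb long in a region of 107.4 kb with 15. COL25A1 and PCM1 were chosen as examples after their values were seen.

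The genes that shared or adjoined these regions were mostly protein-coding genes with a higher median FPKM in SNE than in CPE. For each region the gene of highest mean FPKM was taken from the nearest region that has a tested symbol locus of FPKM at least 1, at most 100 kb away, which gave 3105 neighbouring loci. Of 2541 with a single symbol and a GENCODE entry, 2441 were protein coding, 27 processed pseudogenes, 17 small nuclear RNAs, 13 small nucleolar RNAs and 9 microRNAs. Over all expressed single-symbol loci with an entry, 9049 of 10533 were protein coding. Whether taking the gene of highest mean FPKM changes that share was not tested. The median FPKM of the 3105 neighbours was 33.9 in SNE and 16.9 in CPE, against 12.7 and 6.03 over all 14048 symbol loci with FPKM at least 1. Taking the gene of highest mean FPKM raises these medians by construction, so nothing is read from that difference. By the authors' test 1592 neighbours (51.3%) were higher in SNE, where 47.9% of those 14048 loci were, and 54 (1.74%) were higher in CPE, where 1.64% were. Both shares lie near the background. The median log2 ratio, taken as log2 of CPE + 0.1 over SNE + 0.1, was -1.15 for neighbours and -1.32 for the 14048 loci. It was also -1.15 over all tested symbol loci above 0 in both extracts, so the direction against the background depends on the filter. Neighbours of the 3002 less enriched loci numbered 2143, with a median of -1.39 and a median SNE FPKM of 36.9, and 1046 loci were in both sets, 33.7% of the former and 48.8% of the latter.

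The level of each member was set beside that of the gene of highest mean FPKM in its own region. Over the 10953 members with an expressed tested gene in their own region, the median FPKM, a level per length, was 1.84% of the gene's in SNE and 34.6% of the gene's in CPE. In CPE 1305 members (11.9%) exceeded the gene. Of the 3082 regions concerned, 2683 (87.1%) had a gene with a CPE to SNE ratio under 1, and 68 (2.21%) had a gene with a ratio of at least 4. Those 2 shares were not computed over all 14048 expressed symbol loci, whose log2 ratio had a median of -1.32 and an upper quartile of -0.52. The rule fixes a low SNE level relative to CPE for the members but sets nothing for the gene. As most expressed genes had a ratio under 1, the wider gap in SNE follows from the rule, and nothing is read from it. Taking the gene of highest mean FPKM also lowers the percentages of the gene's level and the 11.9%.

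Long genes more often had at least 1 member in their region than short ones. Such a share depends on how many unnamed loci a region holds, and no share per unnamed locus was computed by gene length. A member may also belong to another gene of the region. Of 9049 expressed protein-coding genes, 3642 (40.2%) had a member in their region. Their median annotated length was 57.1 kb, against 27.0 kb for the 5407 without one, and their median SNE FPKM was 26.4 against 11.5. In 4 equal groups of genes from the shortest to the longest, the share with a member was 21.9%, 34.3%, 48.2% and 56.6%. Median SNE FPKM of the genes with a member stepped down over the same groups, from 37.5 to 36.0, 29.03 and 18.8, and exceeded that of the genes without one in each group (16.6, 13.6, 11.03 and 6.07). Within each group the genes with a member also had a higher median log2 ratio than those without, at -1.71 against -1.87, -1.48 against -1.59, -1.17 against -1.41 and -0.83 against -1.05. These are descriptions of 1 pair of extract values per gene, with no replicate spread behind them.

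**Figure D2:**
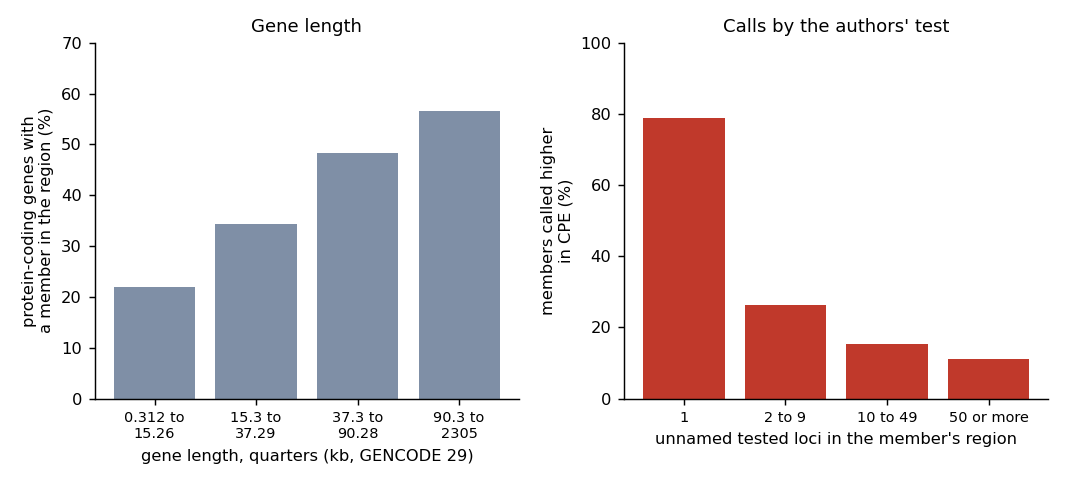
Left, percentage of expressed protein-coding genes with a member in their region (vertical) by annotated gene length in kb, in 4 equal groups (horizontal). Right, percentage of members called higher in CPE by the authors' test (vertical) by the number of unnamed tested loci in the region (horizontal). The left bars rise from 21.9% to 56.6% and the right bars fall from 78.8% to 11.01%. The left share takes no account of the number of unnamed loci in a region. The right shares were not computed for unnamed loci that are not members.

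Members were unevenly spread over regions. Of the 3135 regions 1323 held a single member, while 212 held at least 10 and together 3579 members (32.5%). The fullest was the PTPRK region (chr6:128286417-128841870, hg19), in which 73 of 153 unnamed tested loci were members. Their CPE FPKM ran from 5.05 to 25.7 (median 8.22), their SNE FPKM from 0.101 to 2.91 (median 0.390) and their ratio from 4.93 to 104 (median 17.3). PTPRK itself stood at 37.9 FPKM in SNE and 34.5 in CPE (log2 ratio -0.14, the authors' q 0.717), and 98.4% of its 551.9 kb lies outside annotated exons. All 78 non-members of that region with a value above 0 in SNE also had a ratio of at least 4, so it was the level and not the ratio that kept them out.

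The region of SLIT2, the secreted ligand of ROBO axon guidance receptors (chr4:20253567-20629621), held 60 members of 104 unnamed tested loci, with a median ratio of 14.7. Of these 15 were called, and the highest, CLOC_120195, stood at 10.6 in SNE and 47.3 in CPE (the authors' q 0.000706). SLIT2 had 36.7 FPKM in SNE and 24.0 in CPE (the authors' q 0.545), and MIR218-1, a microRNA within it, was listed at 0 in SNE and 34.6 in CPE (the authors' q 0.459). ASCC3, a helicase of the activating signal cointegrator complex (chr6:100951092-101329248), shared its region with 60 members of 76 unnamed tested loci, none of them called, with a median ratio of 16.1. The gene was level between extracts, at 48.0 in SNE and 48.4 in CPE.

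Regions of genes called higher in SNE also held many members. Of all 14048 tested symbol loci with FPKM at least 1, 47.9% were so called, and their median log2 ratio was -1.32. In the region of LRPPRC, a regulator of mitochondrial messenger RNA stability (chr2:44107709-44223144), all 35 unnamed tested loci were members, with CPE FPKM from 5.32 to 37.0 and ratios from 4.65 to 19.6. LRPPRC stood at 156.8 in SNE and 64.6 in CPE (2.43-fold higher in SNE, q 0.00361 in the authors' deposited table). PSMD14, a deubiquitinase of the proteasome lid, stood in a region with 33 members of 36 loci and was 2.50-fold higher in SNE (q 0.00251 in the authors' deposited table). CDKAL1, a tRNA methylthiotransferase, had 40 members of 148 loci and was 3.15-fold higher in SNE (q 0.00134 in the authors' deposited table). The region of EIF3H, a translation initiation factor subunit, UTP23, a ribosome biogenesis factor, and RAD21, a cohesin subunit, had 44 members of 66 loci. EIF3H (2.95-fold, q 0.00616) and the locus of RAD21 with MIR3610 (2.80-fold, q 0.000706) were, by the authors' deposited table, higher in SNE. LRPPRC (log2 ratio -1.28) and PSMD14 (-1.32) stood near the median of all expressed symbol loci. CDKAL1 (-1.66), EIF3H (-1.56) and the RAD21 locus (-1.49) stood under it.

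Other full regions had genes that the authors' test did not call. The region of the kinase gene WNK1 and of ERC1, a presynaptic and Golgi scaffold, held 52 members of 196 loci, with WNK1 at 167.0 in SNE and 61.8 in CPE and ERC1 at 41.5 and 43.0. PHIP, a bromodomain protein, and IRAK1BP1 shared a region in which 48 of 51 loci were members, with PHIP at 28.4 and 21.4 and IRAK1BP1 at 5.27 and 6.38. POLA1, the catalytic subunit of DNA polymerase alpha, had 45 members of 113 loci and stood at 32.7 and 29.9. The tyrosine phosphatase gene PTPRG had 32 members of 244 loci and stood at 27.2 and 15.4. Over the regions with 5 or more members, the SD of the log2 ratio within a region had a median of 0.69. The region medians had an SD of 0.56. A median over several loci varies less than single loci do, so these SDs are not ranked against each other.

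**Figure D3:**
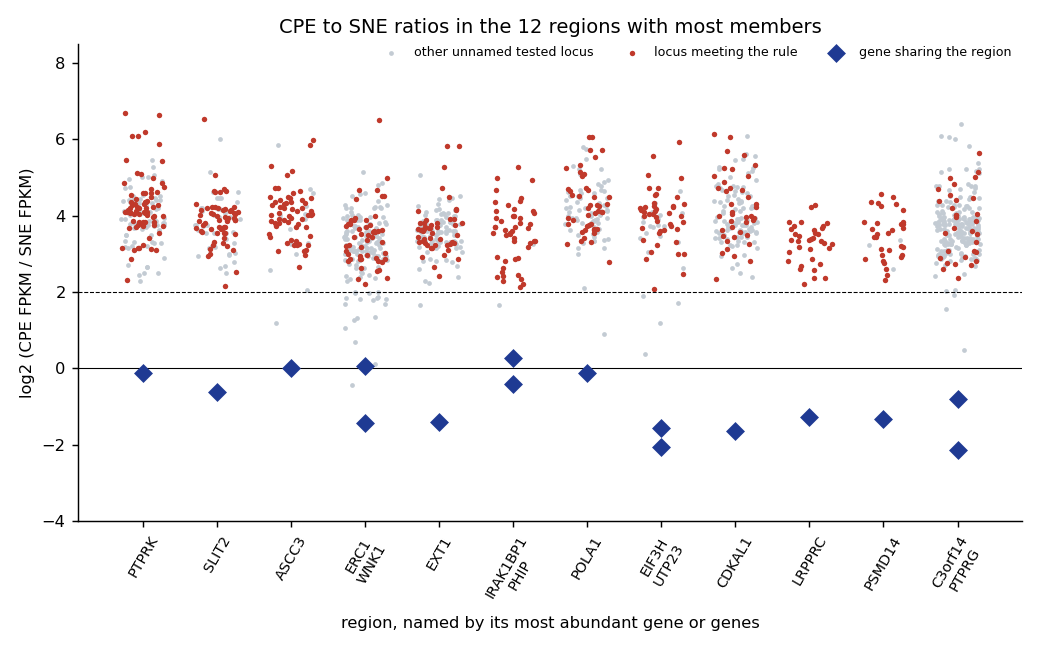
Log2 ratio of CPE over SNE FPKM (vertical) in the 12 regions with most members, with 1 point per unnamed tested locus. Red points are members and grey points other loci. Blue diamonds are protein-coding genes whose locus has a single symbol. Members lie above the dashed bound at 2 by the rule, most grey loci lie above it too, and the genes lie between -2.14 (C3orf14) and 0.27 (IRAK1BP1).

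Ratios as high were common among the unnamed loci that were too scarce to qualify. In regions with a member, 73442 non-members had an SNE value above 0, their median ratio was 10.4, and 87.5% had a ratio of at least 4 at a median CPE FPKM of 1.27 over the 78946 non-members there. In regions without a member the median ratio of unnamed loci was 7.86, 74.0% had a ratio of at least 4, and the median CPE FPKM was 0.817.

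Several of the members of highest level stood beside genes that have near-identical copies elsewhere in the genome. CLOC_068367 had the highest value, 527 in SNE and 5112 in CPE, in the region of CCDC144B, FAM106A and USP32P2 (chr17:18414304-18528930). CLOC_063104 followed with 194 and 2193 in the region of PDXDC2P, a pseudogene copy of PDXDC1 (chr16:70010200-70099851). CLOC_097970 had 256 and 1355 in the region of RBM39, a splicing factor (chr20:34213445-34330234), and is given for its level, not as a case beside a copied gene. CLOC_083750 had 23.5 and 534 beside CBWD2 (chr2:114195268-114253766). CLOC_036844 had 89.8 and 461 beside DDX12P, a pseudogene copy of the helicase gene DDX11. The sources used here do not give how reads were divided between such copies, so these levels beside copied genes are uncertain, and none of the 10 highest was called.

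Further down the order of level, other kinds of gene appeared. CLOC_005442 had 43.5 in SNE and 361 in CPE in the region of GAS5, a non-coding host of small nucleolar RNAs that itself stood at 1313 and 8747. CLOC_150441 had 17.2 and 343 beside PNISR, a serine and arginine rich nuclear protein, and CLOC_141212 had 30.5 and 341 in the region of the cell cycle factor E2F3 and the 7SL pseudogene RN7SL128P. Of ranks 11 to 20, which were named after their values were seen, CLOC_156616 near MIR3609 and TRRAP was the only one called, at 36.3 and 221 (q 0.000706 in the authors' deposited table). The others included CLOC_083038 beside ANKRD36 (8.34 and 329), CLOC_033990 beside the alpha-tubulin genes TUBA1A, TUBA1B and TUBA1C (16.3 and 272), CLOC_077559 beside ZNF224 (53.5 and 221), CLOC_070822 beside the fatty acid synthase gene FASN (15.1 and 214), CLOC_136966 beside GTF2H2 (30.2 and 211) and CLOC_092070 beside RGPD8 (50.9 and 209). Of these genes ANKRD36, GTF2H2 and RGPD8 also have close copies.

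The largest ratios came from members close to 0 in SNE. CLOC_075446, in the 444.6 kb region of the transcription factor gene TCF4, had 0.0355 in SNE and 6.68 in CPE, a ratio of 188. CLOC_136448, beside the ketone body enzyme gene OXCT1, had 0.0346 and 5.46, a ratio of 158. CLOC_003118 beside the adhesion receptor gene LPHN2 (0.0830 and 10.99), CLOC_036905 beside bitter taste receptor genes of the TAS2R family (0.0452 and 5.52) and CLOC_146795 beside QKI, an RNA-binding splicing regulator (0.0968 and 11.3), had ratios of 132, 122 and 117. None of the 5 was called. TCF4 stood at 37.6 in SNE and 34.4 in CPE and QKI at 76.5 and 29.9. In the region of CLOC_036905, by contrast, low symbol loci also had high ratios, with TAS2R64P at 0.0133 and 1.45 and TAS2R13 at 0.214 and 3.08. The 5 loci were picked for an extreme ratio, so nothing is read from the difference to their genes.

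The longest regions ranged widely in how many members they held. CLOC_184343, in the 2242 kb region of the dystrophin gene DMD (chrX:31115794-33357558), was the only member among 50 unnamed tested loci, with 1.91 in SNE and 17.3 in CPE (q 0.000706 in the authors' deposited table). CLOC_093175, in the region of the lipoprotein receptor gene LRP1B, had 0.535 and 11.5 (q 0.000706 in the authors' deposited table) and was 1 of 5 members among 337 loci. CLOC_117190 was the single member among 476 unnamed tested loci around LSAMP, a neural adhesion molecule, with 0.698 and 5.54. CLOC_142869, in the region of PHF3, had 1.57 and 16.9 and was 1 of 10 members among 19 loci. Over 3082 regions the number of members had a Spearman rank correlation of 0.309 with region length, 0.367 with the number of unnamed tested loci and 0.324 with the CPE FPKM of the neighbouring gene. These are across regions that share both libraries, so no p-value is given.

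Members also lay near members of other regions. Joining regions that hold a member and lie at most 100 kb apart gave 2170 clusters, of which 663 had 2 or more regions and held 5441 members (49.4%). Counting company in the same region as well, 10409 members (94.5%) had another member within 100 kb, and 9697 (88.0%) had one in their own region. These shares follow the number of loci counted, and the 94.5% became 99.6% at a CPE bound of 1 and 80.4% at 10. They were not computed for other unnamed loci, so no closer grouping of members is read from them. The clusters with most regions had 8 each. The first ran 359 kb on chromosome 6 from NCOA7, a nuclear receptor coactivator, past the TRMT11 region (chr6:126101848-126461257) with 26 members. The other ran 1846 kb on chromosome 17 through DHX40, CLTC, which encodes the clathrin heavy chain, RPS6KB1, HEATR6, USP32, APPBP2, PPM1D and BCAS3 (chr17:57642886-59488916) with 18. A cluster of 7 regions and 17 members on chromosome 19 ran through zinc finger genes from ZNF45 to ZNF227 (chr19:44406153-44809199). Another of 7 regions with 22 members ran from AFG3L2 to RNMT on chromosome 18.

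Around TRMT11 the members continued past the end of the gene's region, which was singled out after its values were seen. All 17 unnamed tested loci of the 52.8 kb TRMT11 region (chr6:126307576-126360422) were members. Their SNE FPKM ran from 0.582 to 3.58 (median 1.12), their CPE FPKM from 6.84 to 49.6 (median 13.0) and their ratio from 5.49 to 21.0 (median 12.3), and 2 were called. TRMT11 was itself higher in the chromatin extract, at 81.3 in SNE and 184 in CPE (2.26-fold, q 0.000706 in the authors' deposited table), unlike most neighbours. TRMT11 lies on the plus strand in RefSeq, so the loci at higher coordinates lie in its direction of transcription. Past the region does not mean past the end of the gene.

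Between the end of that region and RP11-527F13.1, the next symbol locus, stood 13 unnamed loci, each alone in its region, of which 6 were members. The 6 spanned 81.9 kb, covered 78.8 kb of it, and were separated by gaps of 62 to 2114 bases. In order from 18.96 kb past the TRMT11 region they were CLOC_144697 (0.570 in SNE and 6.72 in CPE), CLOC_144698 (0.608 and 8.13), CLOC_144699 (0.401 and 7.14), CLOC_144700 (0.339 and 5.41), CLOC_144701 (0.411 and 5.37) and CLOC_144703 (0.661 and 8.94). Their ratios lay between 11.8 and 17.8, close to the median of 12.3 inside the TRMT11 region, and all 6 were called at the smallest q in the authors' deposited table, 0.000706. Of all members alone in their region among unnamed tested loci, 78.8% were called. Of the 7 non-members CLOC_144702 had a CPE FPKM of 6.65 and was left out for its length of 454 bases. The other 6, from 100.9 to 117.2 kb past the region, had lower CPE values from 1.18 to 2.84 at ratios no lower than 8.73. RP11-527F13.1 stood at 0.477 in SNE and 5.06 in CPE (the authors' q 0.110). In GENCODE 29 TRMT11 is 217.4 kb long, against 52.8 kb for its region in the table. RP11-527F13.1 ends 163.0 kb past that region. By length the longer gene could therefore reach over these loci. Whether it does was not tested, because coordinates were not compared between the builds.

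**Figure D4:**
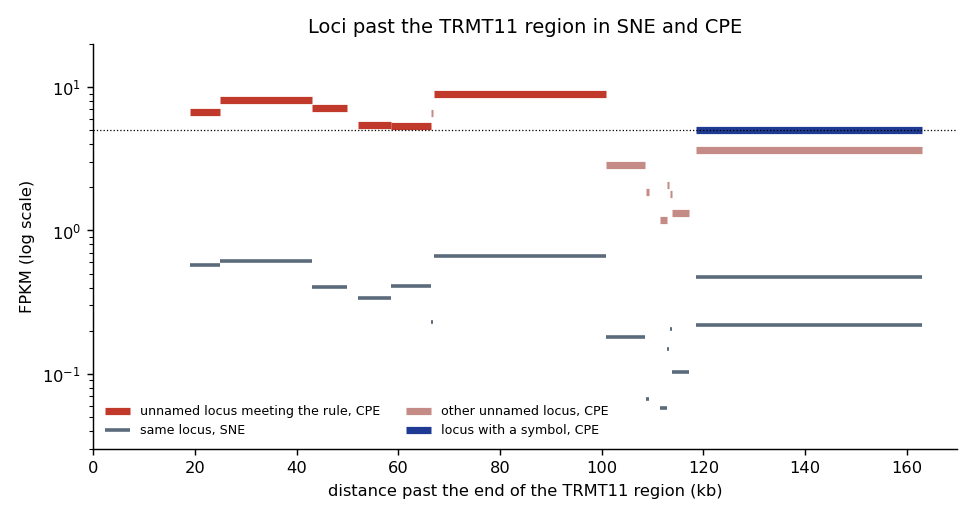
FPKM (vertical, log scale) of each locus past the end of the TRMT11 region, drawn as a bar over its extent in kb (horizontal), with CPE in red for members, pale red for other unnamed loci and blue for RP11-527F13.1, and SNE in grey. The 6 members keep a CPE FPKM of 5.37 to 8.94 up to 100.8 kb, and the loci after them are lower.

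The remaining 7 members without a symbol in their region were scattered. CLOC_140482 (chr6:1615034-1620408) lay in the space between FOXC1, a forkhead transcription factor, 59 bases away, and GMDS, an enzyme of GDP-fucose synthesis, 149 bases away. It had 0.363 in SNE and 5.30 in CPE (q 0.000706 in the authors' deposited table), while FOXC1 stood at 44.4 and 15.5 and GMDS at 18.3 and 8.04. CLOC_064213, 504 bases long (chr17:8090913-8091416), lay 144 bases from C17orf59 and had 3.76 and 18.9. CLOC_124794, in a 94.1 kb region on chromosome 4 (chr4:180980386-181074445), had 0.545 and 8.19, and the nearest tested symbol loci, RP11-433O3.1 and the aspartylglucosaminidase gene AGA, were 1369 and 2615 kb away. CLOC_135236 on chromosome 5 had 0.542 and 5.77 at 53.6 kb from AC008697.1. CLOC_058071, 3.43 kb from the kinase gene MAP2K5, had 0.421 and 5.39. CLOC_059513 (1.22 and 7.84) lay 8.46 kb from AJ003147.8 and CLOC_164156 (0.823 and 5.74) lay 20.3 kb from NPM1P12. Of the 13 members without a symbol 11 were called, and 11 were the only unnamed tested locus of their region. Calls were made for 16.04% of all members and 8.86% of unnamed tested loci over the length bound. They were made for 78.8% (63 of 80) of members alone in their region among unnamed tested loci. The share called is near the last of these, so nothing is read from it about the lack of a symbol. The 2 members without a symbol that were not called were CLOC_058071 and CLOC_135236.

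Chromosomes differed in their share. Chromosome 6 held the most members, 1238, which were 11.2% of members and 10.5% of its unnamed tested loci. Chromosome 2 held 1169 (7.63% of its loci), chromosome 1 held 875 (8.03%) and chromosome 5 held 864 (9.32%). Loci of a region are not independent, and the order differed by distinct regions. Of the 3135 member regions, chromosome 6 held 224, chromosome 2 held 286, chromosome 1 held 270 and chromosome 5 held 206. On chromosome 6 the regions of PTPRK, ASCC3, PHIP and CDKAL1 held 73, 60, 48 and 40 members. The lowest shares of the autosomes were 3.25% on chromosome 20, 3.58% on chromosome 19, 3.85% on chromosome 22 and 3.86% on chromosome 9. On chromosome 19, 39.1% of the 325 abundant loci with an SNE value above 0 were members, and on chromosome 6, 85.97% of 1440 were. Chromosome 1 is incomplete, because 3668 of its unnamed loci lie in regions above the authors' data limit, the longest of 34.0 Mb, and were not tested.

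**Figure D5:**
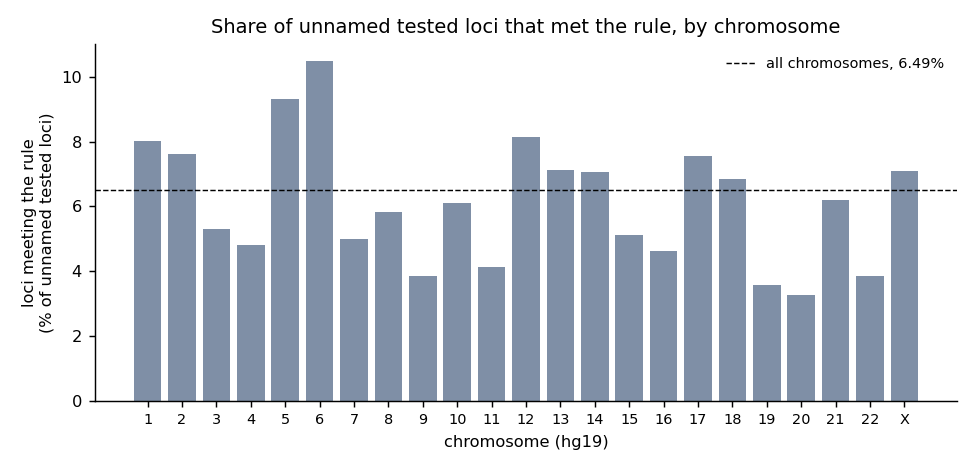
Members as a percentage of unnamed tested loci in regions over 500 bases (vertical) for each chromosome (horizontal), with the share over all chromosomes dashed at 6.49%. Chromosomes 6 (10.5%) and 5 (9.32%) stand highest and chromosomes 20 (3.25%) and 19 (3.58%) lowest. Loci that share a region are each counted.

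The few neighbours that were higher in chromatin were led by carriers of small nucleolar RNAs, which guide the modification of ribosomal RNA and are mostly cut from introns. Of the 54, 51 had FPKM at least 1 in both extracts. In the authors' deposited table the highest was the locus of EIF4A2, a translation initiation helicase, with SNORA4, SNORA63, SNORA81 and SNORD2, at 3450 in SNE and 108633 in CPE, and its region held 4 members. SNORD13 followed at 1060 and 70646, then EIF4G2 with SNORD97 at 3169 and 28479, SNORA34 at 580 and 19489, and RANBP1 with SNORA77 at 638 and 16109. RPL32 with SNORA7A, TAF1D with its small nucleolar RNAs, SNHG1, SLC25A3 with SNORA53 and SNORA49 completed the 10 of highest CPE FPKM, with folds from 4.11 for SLC25A3 to 32.002 for SNORA49. All 10 carry a small nucleolar RNA or its host in their symbol. Reads of such short RNAs and of their host share a locus here and cannot be told apart.

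Gene lists differed in how often their loci had a member in the region, where 38.6% of all 12630 expressed loci with a single symbol had one. Calls in each list are to be read against 1.64% higher in CPE and 47.9% higher in SNE over all expressed symbol loci. Among chromatin and nuclear long non-coding RNAs it was 6 of 11 loci, including GAS5, DLEU1 and DLEU2, of which 1 was called higher in CPE and 5 were not called. DLEU2, a host of microRNAs, stood at 23.5 in SNE and 84.6 in CPE (the authors' q 0.119). Among hosts of small nucleolar RNAs it was 4 of 15, of which SNHG1 (7.38-fold, q 0.0103), SNHG8 (4.86-fold, q 0.000706) and SNHG5 (7.18-fold, q 0.000706) were, by the authors' deposited table, higher in CPE and GAS5 was not called. Long intergenic RNAs had a member for 7 of 49 loci, none called. The region of LINC00641 held 19 members, and it stood at 5.01 in SNE and 4.66 in CPE. RNAs antisense to a named gene had one for 56 of 149, 1 of them called higher in SNE, FGD5-AS1 at 55.3 and 12.7 (q 0.000706 in the authors' deposited table).

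Of 296 expressed zinc finger genes, 63 (21.3%) had a member in the region, 9 of them called higher in SNE and none in CPE (47.9% and 1.64% over all expressed symbol loci), with a median log2 ratio of -0.44 against -0.77 over all 296. ZNF638, an RNA-associated zinc finger protein, had 9 members in its region and stood at 67.6 in SNE and 78.6 in CPE, and ZNF227 had 4 and stood at 83.9 and 78.7. Of 22 HOX genes, the clustered regulators of axial identity, 9 had a member, but their regions held 4 members in all. HOXB9 was called higher in SNE, at 27.1 and 5.55 (q 0.00567 in the authors' deposited table), and HOXB2 stood at 31.7 and 24.5. Among kidney and neural developmental transcription factors 10 of 29 (34.5%) had one, near the 38.6% over all single-symbol loci, with 3 called higher in SNE, and SOX4 (59.3 and 23.4) and MEIS1 (14.9 and 16.5) were examples.

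None of the 31 expressed histone genes, most of which lack introns, had a member in the region. Of 49 ribosomal protein genes 17 (34.7%) had one, near the 38.6% over all single-symbol loci. All 17 were called higher in SNE, where 47.9% of expressed symbol loci were, with a median log2 ratio of -2.26 against -2.25 over all 49. RPS19 stood at 3577 in SNE and 565 in CPE with 1 member in its region, while RPL15 stood at 241 and 66.3 in a 176.7 kb region with 22. A region can hold several genes, so a member counted for RPL15 may belong to another gene there.

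The cell line label was compared with markers. Of 10 HEK293 markers 7 were tested and 5 had FPKM at least 1, among them VIM, KRT8, EYA1 and CDH2, while PAX2 (0.303 in SNE) and LHX1 (0.750 in SNE) were under 1. NEFL (0.120 in SNE) and NEFM (0.0755 in SNE) were under 1 and not tested, and KRT18 was not found under its symbol. Of 11 markers of other cell types 4 were tested. COL1A1 (1.45) and HBA1 (1.79) passed 1 in SNE and none did in CPE. PTPRC and CD3E were at or near 0 and not tested, and PECAM1 was not found under its symbol.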

How the data were processed

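Stranded total RNA of nuclear extracts was sequenced, per the labels' protocols. The submitters' processing notes name TopHat2 (alignment), Cuffdiff (expression estimates and tests) and hg19. Versions, annotation and scaling are not given in the sources used here. Per the file headers, the deposited table gives FPKM for SNE and CPE as 1 value per extract. It also gives the authors' log2 ratio, a test statistic (a score, not used here), and their p-value and q-value. Without values per sample, depth is unknown, and no replicate test, interval for counting error or floor was computed. A deposited isoform table was not used, because 12307 of 14208 value pairs found in both tables (86.6%) stood under another gene.

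Loci were selected by the rule in the text with Python 3.11.15 and pandas 2.3.3. A call was a tested status and the authors' q of at most 0.05. The 31 regions above the data limit (4020 unnamed loci) could not be searched. Neighbours had FPKM of at least 1 and lay within 100 kb, and ratios of neighbours used a pseudocount of 0.1. Gene type and length came from GENCODE 29 by symbol, which matched 10533 of 12630 single-symbol loci (83.4%). Functions were checked on simulated data. Printed starts count from 1.

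The members, lists and tests were chosen with earlier results of these data known. Loci were named by rule: the 10 highest in CPE, the 5 largest ratios, the 5 longest regions, the highest of the 5 clusters with most members, those nearest each bound, the genes of their regions, and up to 4 neighbours of highest FPKM per list, with the genes of the 12 fullest regions. Alternatives were other bounds, windows, filters, pseudocounts and centring. A few loci that the rule names are not reported here.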

Additional observations from a re-analysis of the deposited data

How the results depend on the processing

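Of 62 alternatives run over 7 results, 30 left the value within its range (1.5 times for a count, the 95% interval over loci for a percentage or median), 31 moved it and 1 turned its sign. Those intervals treat loci that share a region as independent, so they are too narrow. The number of members followed the bounds: 67760 at a CPE FPKM of at least 1, 35224 at 2, 2964 at 10, 6897 at a ratio of at least 8, 1768 with the authors' q of at most 0.05 and 3135 as distinct regions, while a ratio of at least 2, another length bound and the deposited log2 ratio moved it by less than 1.5 times. Members called higher in CPE numbered 8013, 4689 and 579 at CPE bounds of 1, 2 and 10, and 704 at a ratio of at least 8. The percentage in a region without a symbol was 0.705% and 0.0337% at CPE bounds of 1 and 10, 0.443% over 200 bases, 0.415% of distinct regions and 0.608% where only tested symbol loci of FPKM at least 1 counted. The percentage with a symbol locus in the window, 99.964% at 100 kb, was 99.800% at 10 kb, 99.838% at a CPE bound of 1, 99.991% with every symbol locus and 99.882% with FPKM at least 1. The percentage with another member in the window was 89.9% at 10 kb, 92.4% at 50 kb, 51.9% of distinct regions, 99.6%, 98.8% and 80.4% at CPE bounds of 1, 2 and 10, 94.98% and 90.9% at ratios of at least 2 and 8, and 49.4% counting other regions only. The neighbours' median log2 ratio was -1.08 with a pseudocount of 1 and -1.22 for protein-coding genes, and 0.000435 when centred on tested symbol loci above 0 in both extracts, whose own median was -1.15. Their median SNE FPKM was 30.1 for protein-coding genes. The restriction to protein-coding genes and the count of other regions only were chosen after seeing the data. No paired analysis was possible because the table holds 1 value per extract and no replicate columns, so no replicate could be left out either. Depth limits low values most: a ratio rests on an SNE FPKM whose error is unknown.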
